A study of Rattus norvegicus with 12 samples.

Results

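The genes measured here were the semaphorins, ephrins, Slits and netrins and their receptors, in long bone of female Sprague-Dawley rats. They were chosen by symbol alone: a gene was taken where a probe set carried a single platform symbol of the Sema3 to Sema7, Plxn, Nrp, Epha, Ephb, Efna, Efnb, Slit, Robo, Ntn1 to Ntn5 or Unc5 series. That rule gave 57 of 14217 named genes, read by 96 of 31042 probe sets of the Affymetrix rat array. The 57 were 17 semaphorins, 8 plexins, 2 neuropilins, 5 ephrins, 12 Eph receptors, 3 Slits, 3 Robos, 2 netrins and 5 symbols that begin with Unc5. Unc50 and Unc5cl met the rule by their letters and are no netrin receptors, which left 55 guidance genes proper, 27 of them ligands and 28 receptors. The 12 arrays fell into 4 groups of 3. STBB OVX rats were ovariectomized and had eaten a 10% blueberry diet from postnatal day 20 to 34 only, and LTBB OVX rats were ovariectomized and ate it from day 20 to 81. OVX rats were ovariectomized and sham rats had the mock operation, and both ate the casein control diet with no blueberry. Surgery was on day 60 and bone was taken on day 81, 3 weeks later. Each array held RNA pooled from 2 to 3 rats, so the spread is that between pools and not between animals. The bone is a femur by the sample labels but a right tibia by the methods.

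Guidance molecules were first known from growing axons, which they attract or repel, and many of the same ligands and receptors act in vessels, immune cells and bone. Semaphorins signal through plexins, some with a neuropilin as co-receptor. Ephrins are held on the cell surface and signal in both directions with Eph receptors on the neighbouring cell. Slits bind Robo receptors, and netrins bind Dcc, neogenin and the Unc5 receptors. In mouse bone several of them pass between bone-forming osteoblasts and bone-resorbing osteoclasts: osteoblast Sema3a restrains osteoclasts through Nrp1 and plexin A, osteoclast Sema4d restrains osteoblasts through Plxnb1, ephrin-B ligands of osteoclasts meet Ephb4 of osteoblasts, and Slit3 from osteoclasts acts on osteoblasts.

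Sham pools stood apart from the other 9 arrays over the whole array: 58.9% of all 14217 genes differed between OVX and sham, and no gene passed the threshold between diets. The deposited values are log2 values centred probe set by probe set, so 0 is the median of the 12 arrays, brightness is lost and 2 genes cannot be ranked by level. A value below is the mean of a gene's probe sets on that centred log2 scale. A gene is said to have risen or fallen, or to have been called, where the limma fit gave an adjusted p under 0.05 over all genes. Cell type markers differed between OVX and sham too: skeletal muscle, erythroid and neutrophil markers were lower in OVX than in sham, and cartilage, osteoblast and osteoclast markers were higher. In RNA of whole bone, fewer cells of a type in the sample and less RNA per cell cannot be told apart. Exact permutation of 3 pools against 3 cannot give a p below 0.10, so every call rests on the fit across genes.

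Guidance genes were mostly higher after ovariectomy. In OVX against sham, 32 of the 57 rose, 8 fell and 17 were not called. That is 56.1% higher and 14% lower, against 30.3% higher and 28.6% lower of all genes. The median log2 fold change was 0.42 over the 57 genes and 0.0047 over all genes. Of the 27 ligands 15 rose and 5 fell, and of the 28 receptors 16 rose and 2 fell. The 3 OVX pools were all above the 3 sham pools for 32 genes, which held for 31.5% of all genes, and all below them for 8, which held for 29.7% of all genes. Robo1 was among the 32 without a call, and Ntn1 was called with overlapping pools. Without Unc50 and Unc5cl, 31 of 55 rose and 7 fell. With the arrays quantile normalized again the numbers were smaller, 19 higher and 3 lower, as they were for all genes, of which 1069 were then higher and 937 lower. The 18 genes not called in that setting were Efnb1, Efnb3, Epha3, Epha4, Ephb3, Ntn1, Plxna1, Plxna3, Plxna4, Sema3a, Sema3d, Sema3f, Sema3g, Sema4b, Sema4d, Sema4f, Sema4g and Sema6a. Their signs did not turn, but several folds shrank: Sema3d had 2.03 and then 0.70, Sema4b -1.13 and then -0.46, Epha3 1.09 and then 0.33, and Sema4f -0.57 and then -0.030.

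**Figure D1:**
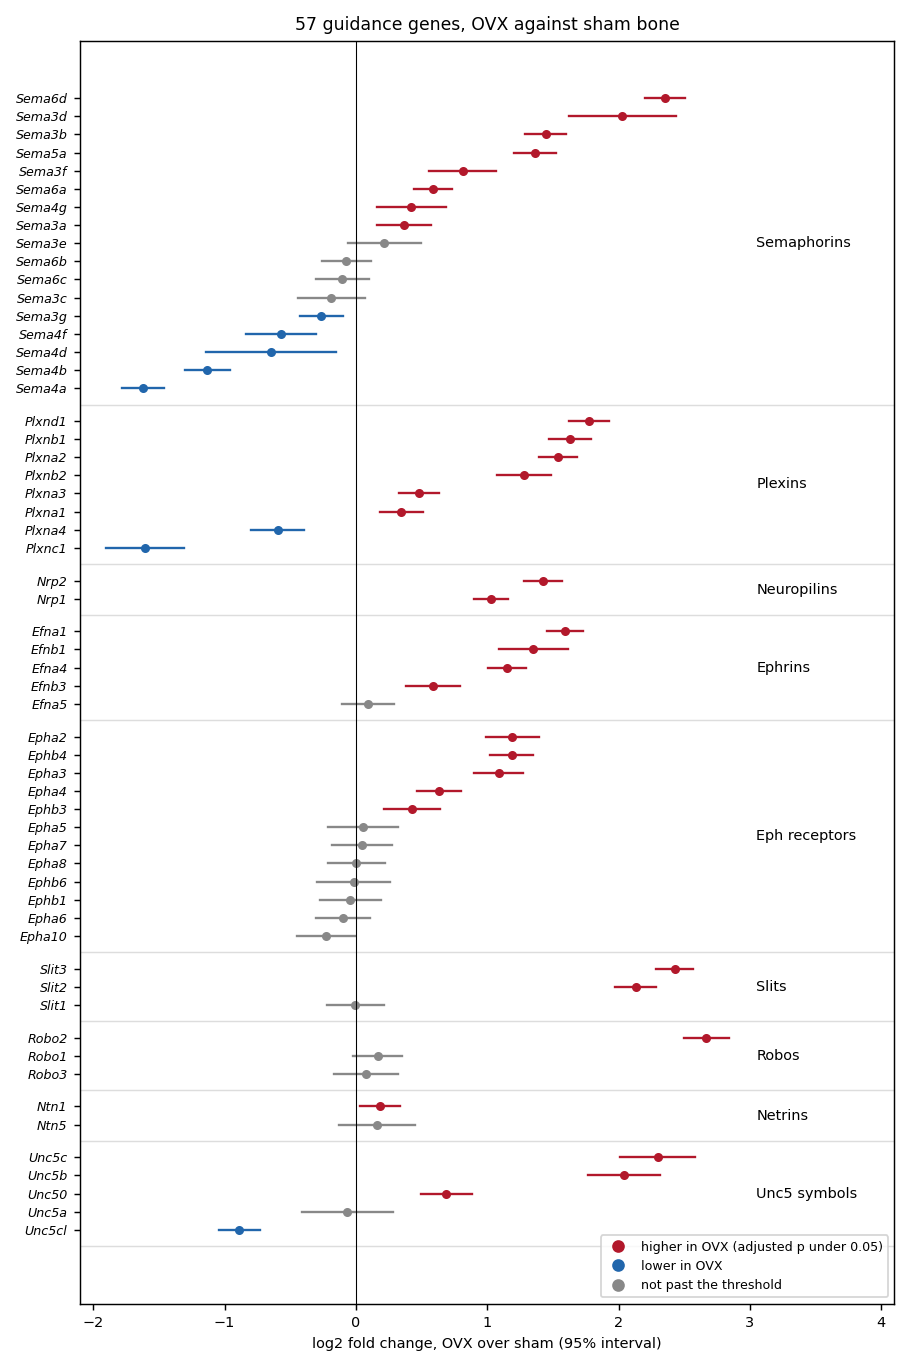
Log2 fold change of each of the 57 genes, OVX over sham, with its 95% interval from the limma fit, grouped by family and ordered by fold within it. Plexins, neuropilins, ephrins and Slits lie mostly to the right of 0, class 4 semaphorins and Plxnc1 to the left, and the Eph receptors part into 5 that rose and 7 close to 0.

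The 2 largest rises were in the Slit and Robo family, with Slits as secreted ligands and Robos as their receptors. Robo2 stood at 0.14, -0.0042 and -0.039 in the OVX pools, against -2.58, -2.60 and -2.74 in the sham pools. Its log2 fold change was 2.67 ± 0.079 (SE), adjusted p = 3.92e-11, or 6.36-fold. Slit3 read 0.080, -0.021 and 0.050 in OVX and -2.36, -2.42 and -2.39 in sham, a rise of 2.43 ± 0.066 (SE), adjusted p = 2.30e-11. In both genes the sham pools lay close together and far below all 9 pools of ovariectomized rats. Slit2, a midline repellent for axons, had -0.015, -0.031 and 0.074 in OVX pools and -2.05, -2.24 and -2.08 in sham pools, and rose by 2.13 ± 0.072 (SE), adjusted p = 1.06e-10. The remaining members of the family did not pass. Slit1, known mainly from the nervous system, differed by -0.0033 ± 0.10 (SE), adjusted p = 0.981, and Robo3, which modifies the response of crossing axons, by 0.079 ± 0.11 (SE), adjusted p = 0.574. Robo1, a Slit receptor of many tissues, had 0.086, 0.13 and 0.023 in OVX and -0.041, -0.21 and 0.0023 in sham. Its OVX pools were all above its sham pools, but the fold change of 0.17 ± 0.086 (SE) had an adjusted p of 0.117.

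The start of transcription is shown for the 2 genes with the largest rise and for Efnb1, the one osteoblast and osteoclast coupling gene among those called whose promoter holds the RUNX letters. RUNX factors direct osteoblast genes, so their core sequence, ACCACA on either strand, was looked for in the 250 bases before and 50 bases after each start (RefSeq, build GRCr8). Each sequence below runs 5′ to 3′ on the gene's own strand, with the RUNX letters, where present, in capitals.
Robo2, chr11:26526363-26526662, minus strand: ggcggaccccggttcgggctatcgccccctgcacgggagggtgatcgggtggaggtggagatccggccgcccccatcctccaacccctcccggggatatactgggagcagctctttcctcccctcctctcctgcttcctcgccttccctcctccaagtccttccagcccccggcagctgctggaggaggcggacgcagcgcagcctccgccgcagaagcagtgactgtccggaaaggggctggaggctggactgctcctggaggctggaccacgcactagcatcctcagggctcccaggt
Slit3, chr10:20075679-20075978, plus strand: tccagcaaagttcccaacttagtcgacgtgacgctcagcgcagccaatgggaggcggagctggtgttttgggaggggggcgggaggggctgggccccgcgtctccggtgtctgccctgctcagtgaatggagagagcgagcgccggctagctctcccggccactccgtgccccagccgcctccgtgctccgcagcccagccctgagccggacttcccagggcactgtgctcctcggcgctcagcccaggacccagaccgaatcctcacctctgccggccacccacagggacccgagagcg
Efnb1, chrX:68297279-68297578, plus strand: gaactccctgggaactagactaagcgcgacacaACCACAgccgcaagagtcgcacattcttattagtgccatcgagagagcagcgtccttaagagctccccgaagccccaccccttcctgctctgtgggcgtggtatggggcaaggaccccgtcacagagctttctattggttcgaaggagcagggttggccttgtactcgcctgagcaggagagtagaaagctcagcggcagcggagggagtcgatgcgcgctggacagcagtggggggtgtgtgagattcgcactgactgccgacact
A promoter was found for 43 of the 57 genes. The RUNX letters were in 4 of the 21 promoters of genes that rose (19%; Efna4, Efnb1, Plxna3 and Unc50), in 1 of 6 of those that fell (Unc5cl) and in 1 of 16 of those not called (Sema6b), against 16.9% of 27457 promoters in the table. The AP-1 letters TGANTCA were in none of the 27 promoters of called genes and in 7.33% of all promoters. The estrogen response element, AGGTCA and TGACC with 3 bases of any kind between them, was in none of the 43 and in 6 of the 27457. The shares in genes that rose and in all promoters thus lay close together for RUNX, and a match is a description of letters, not a site.

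Of the 17 semaphorins measured 8 rose and 5 fell, beside 30.3% higher and 28.6% lower over all genes. By class, 4 of 7 secreted class 3 members rose and 1 fell, and 1 of 5 class 4 members rose and 4 fell; the difference between classes was not tested. Sema6d, a membrane ligand of Plxna1 whose complex with Trem2 and Tyrobp is known in mouse osteoclasts, had -0.0073, 0.048 and -0.0095 in OVX against -2.20, -2.40 and -2.44 in sham. That is a rise of 2.35 ± 0.070 (SE), adjusted p = 3.92e-11. The transmembrane Sema6a rose by 0.59 ± 0.068 (SE), adjusted p = 6.24e-06, while Sema6b and Sema6c had fold changes of -0.074 and -0.10 and were not called. Sema5a, a membrane semaphorin with thrombospondin repeats, rose by 1.36 ± 0.075 (SE), adjusted p = 5.72e-09.

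Among class 3 semaphorins Sema3d was highest in OVX over sham. Its pools had 0.043, 0.017 and -0.10 in OVX and -1.87, -1.79 and -2.46 in sham, and its fold change of 2.03 ± 0.19 (SE), adjusted p = 7.69e-07, had the widest error of the genes that rose. Sema3b, which mouse osteoblasts make in response to vitamin D, had -0.0025, 0.10 and 0.029 in OVX and -1.49, -1.32 and -1.40 in sham, a rise of 1.44 ± 0.073 (SE), adjusted p = 2.69e-09. Sema3f, a ligand of Nrp2, rose by 0.81 ± 0.12 (SE), adjusted p = 4.89e-05. Sema3a, the osteoblast signal that protects bone in mice, showed a smaller difference. It had 0.16, 0.16 and 0.0031 in STBB OVX pools, 0.12, -0.034 and -0.0031 in LTBB OVX pools, 0.12, 0.14 and -0.027 in OVX pools and -0.27, -0.49 and -0.11 in sham pools. Its rise in OVX over sham was 0.37 ± 0.10 (SE), adjusted p = 0.00484, with all sham pools below the other 9. Sema3g, a vessel semaphorin, fell by 0.26 (adjusted p = 0.00855), and Sema3c and Sema3e, at -0.19 and 0.22, were not called.

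Class 4 semaphorins are membrane ligands, several of them known from lymphocytes and myeloid cells. Sema4a, which costimulates T cells, had the largest fall of all 57 genes. It stood at -0.16, 0.034 and -0.072 in OVX and 1.62, 1.61 and 1.44 in sham, a log2 fold change of -1.62 ± 0.073 (SE), adjusted p = 1.03e-09, or 3.08-fold lower. Sema4b had -0.019, -0.037 and -0.028 in OVX against 1.11, 1.18 and 1.02 in sham and fell by 1.13 ± 0.079 (SE), adjusted p = 5.28e-08. Sema4f fell by 0.57 (adjusted p = 0.00132). Sema4g was the exception in this class and rose by 0.42 ± 0.12 (SE), adjusted p = 0.00834. Sema4d, the osteoclast signal to Plxnb1, had 0.0026, -0.024 and -0.17 in OVX and 0.37, 0.10 and 1.28 in sham. The third sham pool was far above the other 2, and the fall of 0.65 ± 0.23 (SE), adjusted p = 0.026, rests on it: without that pool the value was -0.30 with an adjusted p of 0.0618. The call also ended without OVX pool 2 (adjusted p = 0.0501), without OVX pool 3 (adjusted p = 0.0782) and with the OVX and sham arrays alone (adjusted p = 0.0639). Of class 4 only Sema4a kept its call when the arrays were quantile normalized again.

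Of the semaphorin receptors, 6 of 8 plexins rose and 2 fell, and both neuropilins rose, beside 30.3% higher and 28.6% lower over all genes. Plxnd1, the receptor of Sema3e in vessels, had 0.050, -0.010 and 0.21 in OVX and -1.69, -1.69 and -1.70 in sham, a rise of 1.78 ± 0.069 (SE), adjusted p = 3.35e-10. Plxnb1, the receptor through which Sema4d acts on osteoblasts, had 0.055, -0.077 and 0.13 in OVX against -1.66, -1.60 and -1.53 in sham, a rise of 1.63 ± 0.074 (SE), adjusted p = 1.09e-09. Its OVX and sham pools lay far apart. Plxnb2, a close relative of Plxnb1, rose by 1.28 ± 0.094 (SE), adjusted p = 8.15e-08. Plxna2, a receptor of class 3 and class 6 semaphorins, rose by 1.54 ± 0.067 (SE), adjusted p = 8.01e-10, and Plxna3 by 0.48 and Plxna1 by 0.35. Plxnc1, the Sema7a receptor of myeloid cells, had 0.042, 0.014 and -0.22 in OVX and 1.76, 1.68 and 1.21 in sham, and fell by 1.61 ± 0.14 (SE), adjusted p = 3.24e-07. Plxna4, a receptor of Sema3a and Sema6a on neurons, fell by 0.60 (adjusted p = 1.07e-04).

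Neuropilins bind class 3 semaphorins and vascular endothelial growth factors. Nrp1 had 0.0029, 0.024 and -0.014 in OVX and -1.02, -1.05 and -1.01 in sham. The 2 groups did not overlap and Nrp1 rose by 1.03 ± 0.060 (SE), adjusted p = 1.02e-08. Nrp2 had 0.070, -0.071 and 0.070 in OVX and -1.41, -1.45 and -1.34 in sham and rose by 1.42 ± 0.066 (SE), adjusted p = 1.33e-09.

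Of 5 ephrins 4 rose and none fell, beside 30.3% higher and 28.6% lower over all genes. Efna1, the main ligand of Epha2, had 0.052, 0.077 and -0.014 in OVX against -1.50, -1.62 and -1.54 in sham, a rise of 1.59 ± 0.063 (SE), adjusted p = 3.62e-10. Efnb1, which osteoblasts carry and which is mutated in human craniofrontonasal syndrome, had 0.033, 0.081 and 0.15 in OVX against -1.18, -1.10 and -1.51 in sham. Its rise was 1.35 ± 0.12 (SE), adjusted p = 5.86e-07. Efna4 rose by 1.15 (adjusted p = 1.01e-08) and Efnb3 by 0.59 (adjusted p = 1.48e-04), while Efna5, at 0.093, was not called.

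Of the 12 Eph receptors 5 rose, and 7 with fold changes between -0.23 and 0.055 were not called. Over all genes 30.3% were higher and 28.6% lower, and whether the Eph receptors differ from that was not tested. Ephb4, the osteoblast receptor for ephrin-B ligands, had 0.091, 0.045 and 0.23 in OVX pools and -1.05, -1.13 and -1.01 in sham pools, a rise of 1.18 ± 0.077 (SE), adjusted p = 2.63e-08. Epha2, a receptor on both osteoclasts and osteoblasts in mice, had 0.16, 0.019 and 0.063 in OVX and -1.21, -1.24 and -0.88 in sham, a rise of 1.19 ± 0.092 (SE), adjusted p = 1.42e-07. Epha3 rose by 1.09 ± 0.087 (SE), adjusted p = 1.98e-07. Epha4, which also binds ephrin-B ligands, had 0.18, 0.11 and 0.027 in OVX against -0.58, -0.41 and -0.60 in sham and rose by 0.64 ± 0.077 (SE), adjusted p = 1.03e-05. Ephb3 had 0.12, 0.10 and 0.025 in OVX against -0.18, -0.54 and -0.32 in sham and rose by 0.42 ± 0.10 (SE), adjusted p = 0.00217. Epha5, Epha6, Epha7, Epha8, Epha10, Ephb1 and Ephb6, many of them best known from neurons, made up those not called.

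Of the netrins and netrin receptors, Ntn1, Unc5b and Unc5c rose and none fell, beside 30.3% higher and 28.6% lower over all genes. Unc5c, a repulsive netrin receptor of axons, had -0.030, -0.029 and 0.11 in OVX and -2.27, -2.59 and -1.99 in sham, a rise of 2.30 ± 0.13 (SE), adjusted p = 8.57e-09. Unc5b, the netrin receptor of vessels and osteoclast precursors, had 0.23, -0.058 and 0.025 in OVX and -2.25, -1.79 and -1.90 in sham and rose by 2.04 ± 0.13 (SE), adjusted p = 1.72e-08. Unc5a, at -0.064 ± 0.16 (SE), adjusted p = 0.76, was not called. Ntn1, whose protein acts on osteoclast formation in mice, had 0.13, -0.060 and 0.092 in OVX and -0.22, -0.13 and -0.042 in sham. These pools overlapped, and the rise of 0.18 ± 0.070 (SE), adjusted p = 0.04, was lost with the pool number as a block (adjusted p = 0.0648), with the OVX and sham arrays alone (adjusted p = 0.122) and when any of 9 of the 12 arrays was left out (adjusted p between 0.0515 and 0.142). Ntn5 differed by 0.16 ± 0.13 (SE), adjusted p = 0.336. The 2 symbols that are no netrin receptors went opposite ways: Unc50, a Golgi protein, rose by 0.69 (adjusted p = 2.00e-05), and Unc5cl, a death-domain protein, fell by 0.89 (adjusted p = 2.21e-07).

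Genes known to pass between osteoblasts and osteoclasts were 25 in a list made from textbook knowledge, of which 20 were measured. Among these 18 rose, Sema4d fell and Robo1 was not called, beside 30.3% higher and 28.6% lower over all genes. The log2 fold changes had a median of 1.24, against 0.0047 over all genes. Earlier results of these data were known when the list was made, so the count is a description only. The mean of the 20 genes lay between 0.011 and 0.054 in the STBB OVX pools. It lay between 0.0016 and 0.066 with LTBB, between 0.018 and 0.091 in OVX and between -1.14 and -1.05 in sham. No probe set was named here for Sema7a, Efnb2, Ephb2, Efna2 or Ntn4, so the pair of ephrin-B2 with Ephb4 was seen from the receptor alone.

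**Figure D2:**
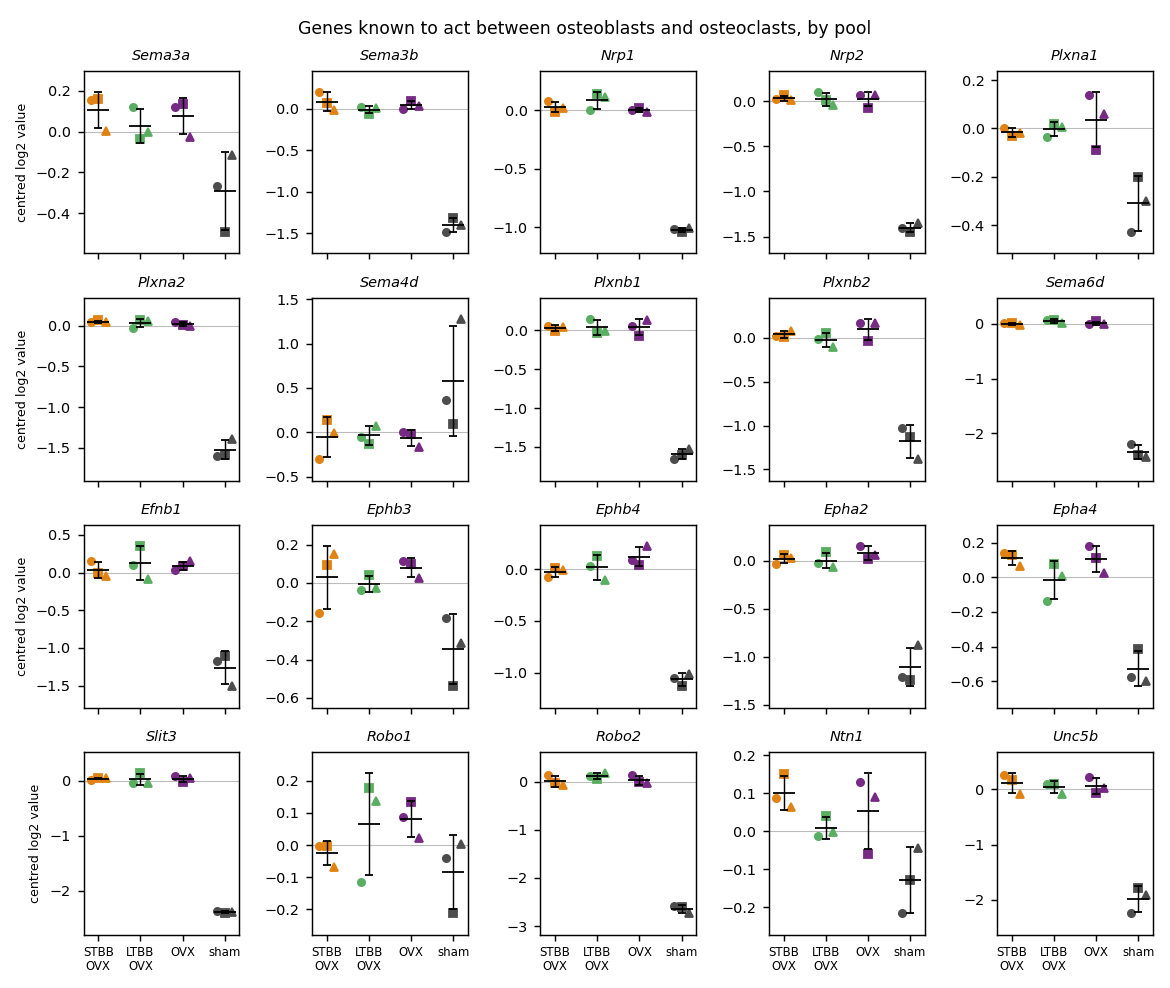
Centred log2 value of each of the 20 measured genes that act between osteoblasts and osteoclasts, by pool (circle, square and triangle for pools 1, 2 and 3), with the group mean and SD as bars; each panel has its own vertical scale. In most panels the 3 sham pools sit below the other 9, while Sema4d has a single high sham pool and in Robo1 and Ntn1 the groups lie close.

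Probe sets of a gene did not always read alike. Of the 57 genes 33 had a single probe set, of which 14 rose and 5 fell, and 24 had several, of which 18 rose and 3 fell. Over all genes 30.3% were higher and 28.6% lower. In 11 of the 24 all probe sets were called the same way, in 9 only some were, in 3 none was, and in Plxna1 they were called in opposite directions. The 3 Plxna1 probe sets had log2 fold changes of 1.45, 0.15 and -0.55, so the rise of its mean stands for no single one of them. Nrp2 had one probe set at 2.77 and one at 0.075, Slit2 had 3.22, 3.01 and 0.17, and Sema5a had 3.39, 1.57, 0.45 and 0.05. Epha3 ran from 0.062 to 2.19 over 3 probe sets. Of the genes that fell, Plxna4 had -1.21 and 0.018 and Sema3g had -0.59 and 0.060, each with only the falling probe set called. The mean over probe sets of all these genes is thus a smaller change than the most responsive probe set read. Robo2 was called by all of its probe sets, but at 3.96, 2.75 and 1.29, a spread of 2.67 that is close to the 2.70 of Nrp2. Taking 1 probe set per gene, the first by identifier, in place of the mean left 26 genes higher and 8 lower. Of all 14217 genes 4127 were then higher and 3988 lower. Taking 1 probe set ended the calls of Epha3, Nrp2, Ntn1, Sema5a, Sema6a and Slit2. That choice was arbitrary: Plxna4 and Sema3g kept their calls because the probe set taken was the called one.

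**Figure D3:**
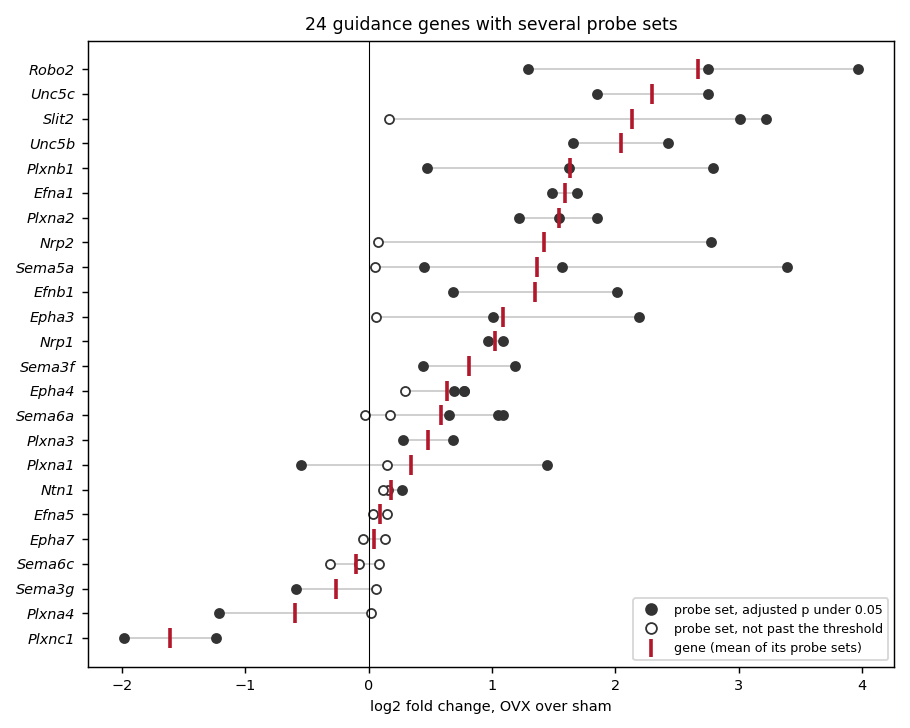
Log2 fold change, OVX over sham, of every probe set of the 24 guidance genes with several (filled where the adjusted p was under 0.05), with the gene's mean as a bar. Probe sets of Efna1 and Nrp1 lie near one another. Those of Slit2, Nrp2, Sema5a, Robo2, Plxnb1 and Epha3 spread over more than 2 log2 units, and Plxna1 has called probe sets on both sides of 0.

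Marker lists of the cell types in bone also differed between OVX and sham. The counts below stand beside 30.3% higher and 28.6% lower over all genes in OVX against sham. The mean of the 32 guidance genes that rose was 0.020 to 0.072 in OVX pools and -1.22 to -1.21 in sham pools. That of the 8 that fell was -0.059 to 0.022 in OVX pools and 0.86 to 0.91 in sham pools. Both sets were chosen by their calls in these same arrays, so their gaps between OVX and sham follow from that choice. Osteoblast and osteocyte markers rose in 10 of 11 genes, with list means of -0.029 to 0.061 in OVX against -2.25 to -2.08 in sham, and osteoclast markers in 7 of 8, with -0.013 to 0.15 in OVX against -2.20 to -1.94 in sham. Cartilage markers rose in 10 of 11, with -0.080 to 0.30 in OVX against -4.79 to -4.65 in sham. Endothelial markers rose in 10 of 11 and fell in 1, with 0.023 to 0.065 in OVX against -0.86 to -0.78 in sham. Macrophage markers rose in 5 of 8 and fell in 1, and nerve and Schwann cell markers rose in 2 of 8 and fell in 2.

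Blood cell and muscle markers ran the other way. Skeletal muscle markers fell in 13 of 13, with list means of -3.26 to -1.33 in OVX against 3.29 to 4.19 in sham. Erythroid markers fell in 8 of 8, with -0.28 to 0.11 in OVX against 2.54 to 2.98 in sham, neutrophil markers in 5 of 5, with -0.31 to 0.034 in OVX against 2.47 to 3.01 in sham, and B cell markers in 2 of 3. Because values are centred, whether a defining marker is near its background cannot be read. The part of muscle, marrow or cartilage in the guidance results was not tested.

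**Figure D4:**
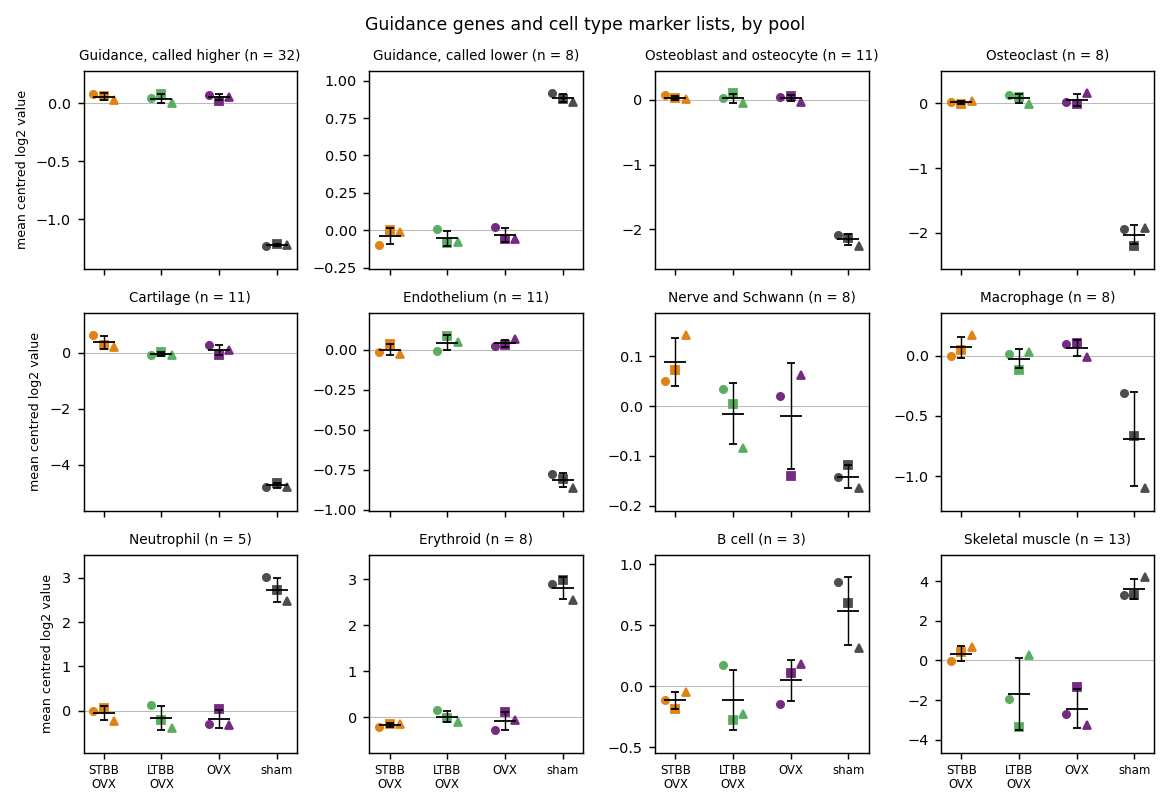
Mean centred log2 value by pool (circle, square and triangle for pools 1, 2 and 3) of the guidance genes called higher or lower in OVX over sham and of the marker lists, with group mean and SD; each panel has its own vertical scale. The guidance genes were chosen by their calls in these same arrays, so their low or high sham pools follow from that choice. The bone, cartilage and endothelial lists have low sham pools and the blood cell and muscle lists high ones. Muscle markers spread widely among the ovariectomized pools.

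Of a list of 67 co-receptors, further ligands and receptors, and intracellular effectors, 64 were measured, and 41 rose and 9 fell, beside 30.3% higher and 28.6% lower over all genes. Their log2 fold changes had a median of 0.42, against 0.0047 over all genes. Co-receptors were among the largest rises. Chl1, an adhesion molecule that pairs with neuropilins, had 0.15, 0.25 and 0.075 in OVX and -2.29, -2.64 and -2.80 in sham, a rise of 2.74 ± 0.11 (SE), adjusted p = 3.57e-10. Neo1, the netrin and repulsive guidance molecule receptor, rose by 1.26 ± 0.058 (SE), adjusted p = 1.15e-09, and Dcc by 0.39 (adjusted p = 0.00178). Tyrobp and Trem2, partners of Plxna1 in osteoclasts, rose by 0.99 and 0.95. Farp2, an exchange factor that plexin A1 uses, had -0.13, -0.27 and 0.20 in OVX and -2.29, -2.02 and -2.50 in sham and rose by 2.20 ± 0.12 (SE), adjusted p = 7.78e-09. Rhod, a small GTPase that binds plexins, rose by 2.13, and Fyn, a kinase of the semaphorin response, by 1.85. The small GTPases Rac1 and Cdc42 were not called, at 0.045 and 0.013, and Rhoa rose by 0.52.

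Repulsive guidance molecules, the other ligands of Neo1, all fell. Hjv, a bone morphogenetic protein co-receptor made mainly by skeletal muscle and liver, had -2.31, -1.41 and -2.34 in OVX and 3.39, 3.55 and 4.79 in sham, a fall of 5.93 ± 0.61 (SE), adjusted p = 2.16e-06. Among STBB OVX pools it read -0.087, 0.087 and 0.10 and among LTBB OVX pools -1.93, -2.52 and 0.50, a spread like that of the muscle list. Rgma had 0.13, -0.40 and -0.021 in OVX and 0.86, 0.45 and 1.60 in sham, a fall of 1.07 (adjusted p = 9.14e-04), and Rgmb fell by 0.43 (adjusted p = 0.0143). Rap1a, a GTPase that plexins switch off, fell by 0.72 (adjusted p = 1.48e-05). Farp2, Rgma, Rgmb and Rap1a were no longer called when the arrays were quantile normalized again. Rgmb was also not called without sham pool 3, OVX pool 2 or OVX pool 3 (adjusted p between 0.0506 and 0.0522). With 1 probe set per gene it had -0.32 and no call (adjusted p = 0.0766).

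The second question of the design was what either blueberry diet did to these genes in ovariectomized rats. No guidance gene, and none of the 14217 genes, passed the limma threshold in LTBB OVX against OVX, STBB OVX against OVX or STBB OVX against LTBB OVX. For the guidance genes this held in every alternative run, but not for all genes: with the 2 groups alone 40 genes were called higher in STBB OVX than in OVX, and without LTBB OVX pool 3 there were 8, with 8 also between the diets. Without STBB OVX pool 1 there was 1 in each of these comparisons. With the arrays quantile normalized again 2 genes were called higher in STBB OVX than in OVX, and 7 higher and 2 lower in STBB OVX than in LTBB OVX. At an unadjusted p under 0.05 there were 0, 0 and 1 guidance genes, against 2.31%, 2.89% and 3.4% of all genes. The whole 95% interval lay within 0.5 log2 units of 0 for 53 of the 57 genes in LTBB OVX against OVX, 56 in STBB OVX against OVX and 54 between the diets. The genes outside that bound were Epha5, Ntn5, Sema3d and Sema4d in the first, Sema3d in the second, and Sema3c, Sema3d and Sema4d in the last.

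**Figure D5:**
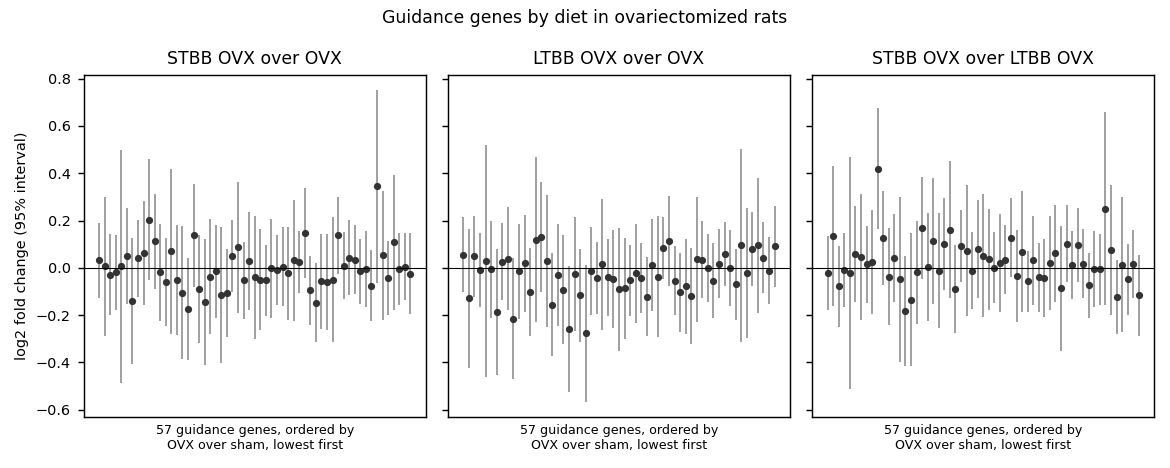
Log2 fold change of the 57 guidance genes between diets with 95% intervals, genes ordered by their OVX over sham fold, lowest first. Every interval holds 0 in the 3 panels except that of Sema3c in STBB OVX over LTBB OVX, at 0.42.

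Sema3c, a class 3 semaphorin of heart and vessel growth, was the guidance gene with an unadjusted p under 0.05. Its values were 0.33, 0.13 and 0.043 in STBB OVX pools, -0.33, -0.22 and -0.20 in LTBB OVX pools, 0.077, -0.11 and -0.077 in OVX pools and 0.019, -0.019 and 0.45 in sham pools. The 3 STBB OVX pools were above the 3 LTBB OVX pools, by 0.42 (95% interval 0.16 to 0.67), but the adjusted p of 0.9999 gave no call. LTBB OVX was below OVX by 0.22 (95% interval of the difference -0.47 to 0.039), again with no overlap (as in 4.77% of all genes) and no call. In LTBB OVX against OVX, Epha5 and Ntn5 had a smaller p than Sema3c. The Eph receptor Epha5 differed by -0.26 (-0.53 to 0.0081) and the netrin Ntn5 by -0.28 (-0.57 to 0.013), in both with overlapping pools.

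With the short-term diet the 3 guidance genes of smallest p were Ephb4, Sema3d and Sema5a. Ephb4 had -0.080, 0.0074 and -0.0074 in STBB OVX pools and 0.091, 0.045 and 0.23 in OVX pools, a difference of -0.15 (95% interval -0.31 to 0.019) that was a small part of its difference from sham. Sema3d differed by 0.34 (-0.063 to 0.75) and Sema5a by 0.14 (-0.025 to 0.30). Pools did not overlap for Ephb4 and Robo1, both lower in STBB OVX than in OVX, where 5.13% of all genes did so, and for Sema6c, higher in STBB OVX, where 4.26% did. Between the diets Sema3c, Sema6c and Ntn1 had all STBB OVX pools above all LTBB OVX pools, as 5.3% of all genes did. Slit2 and Ephb1 followed Sema3c by p there, at -0.12 (-0.28 to 0.034) and -0.18 (-0.42 to 0.051). Muscle markers, with list means of -0.052 to 0.66 in the STBB OVX pools, -3.33 to 0.27 in the LTBB OVX pools and -3.26 to -1.33 in the OVX pools, also varied among these 9 arrays, and their part in the diet values was not tested.

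Against the same sham pools the 3 ovariectomized groups gave nearly the same numbers of calls. Of the 57 genes 32 were higher and 8 lower in STBB OVX, 31 higher and 9 lower in LTBB OVX, and 32 higher and 8 lower in OVX. All genes were higher in 29.3%, 29.2% and 30.3% and lower in 29%, 29.1% and 28.6%. These comparisons share the sham arrays, so their likeness is no repeat. Robo2 was above sham by 2.64 in the STBB OVX pools, 2.76 in the LTBB OVX pools and 2.67 in the OVX pools, and Slit3 by 2.43, 2.42 and 2.43 in the same order. Sema4a was below sham, at -1.59, -1.57 and -1.62. The calls parted for 2 genes: Ntn1, at 0.14 in LTBB OVX, was not called there, and Sema3c was called lower in LTBB OVX alone, at -0.40 ± 0.12 (SE), adjusted p = 0.00999. The third sham pool of Sema3c was the highest of the 12, and without it the difference was -0.25 with an adjusted p of 0.0315. Without that same sham pool Ntn1 was called in LTBB OVX too (adjusted p = 0.0469). For neither gene was a diet difference called.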

How the data were processed

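RNA of long bone was hybridised to 12 Affymetrix rat arrays, 3 pools of 2 to 3 rats in each of 4 groups. The authors deposited log2 values, made with robust multiarray analysis (RMA); in GeneSpring the lowest signals were then raised to a minimum, and chips and genes were each normalized. GCOS and RMA are named in the submitters' notes, with no version in any source used here. As deposited, the 12 values of a probe set have a median of 0, so level and distance from background are lost, and precision is set by the 3 arrays a group.

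The table held 31099 probe sets, from which 57 controls were removed and no dim ones. Probe sets with 1 platform symbol (20826) were averaged into 14217 genes; 436 with several symbols and 9780 with none were not used. Names of 20758 probe sets were matched to RefSeq by gene ID, and none of the guidance symbols was changed. Group means were fitted over all genes with limma 3.58.1 in R 4.3.3, with Benjamini-Hochberg adjustment at 0.05. On simulated data with the pools' own spread this recovered 72% of genes changed by 0.5 log2 units and 98% of those changed by 1 in OVX against sham. Only 100 genes were changed at each size there, whereas 58.9% of all genes differed between OVX and sham. The adjusted threshold was thus stricter in the simulation than in that comparison. In the diet comparisons no gene passed, so a lone change there faced a stricter threshold than in the simulation. Per the methods, RNA of at least 8 rats a group was pooled at random into 3 samples, so p-values measure the spread between pools. Deviations of same-numbered pools correlated at over 0.1 in all 3 pairs of LTBB OVX with sham (0.11 to 0.23) and of STBB OVX with sham (0.10 to 0.17), and in none of the other comparisons; the labels give no shared origin for a number. The members and lists were chosen with earlier results of these data known. Genes named with values were the coupling genes, the 10 largest rises and falls without overlap, the 3 smallest p per diet comparison, genes whose probe sets were called in opposite directions, and the 4 largest rises and falls among partners; all others were named after their values were seen. Array scaling, probe set choice, array weights, samples in the fit, a block on pool number, robust variances, a fold minimum and single arrays left out were tried as alternatives. Promoters came from RefSeq (GRCr8).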

Additional observations from a re-analysis of the deposited data

How the results depend on the processing

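Over OVX against sham, LTBB OVX against sham and STBB OVX against sham, 40 guidance genes were called in each. Quantile normalizing the arrays again left 22, 24 and 23. Fitting each probe set on its own called 63, 65 and 64 of the 96 probe sets, which counts probe sets and not genes. Of all 31042 probe sets 8044, 7795 and 7794 were then higher and 7411, 7500 and 7486 lower. Leaving out 1 array gave 39 to 41, 39 to 40 and 37 to 41 calls. In OVX against sham, 2 of the 40 called genes (Ntn1 and Sema4d) lost the call without some array, and 3 gained one (Epha10 without LTBB OVX pool 1, OVX pool 3 or sham pool 1, Sema6c without sham pool 1 and Sema3e without sham pool 2). In LTBB OVX against sham, Sema3a, Sema3g, Sema4d and Sema4g lost the call without some array. Epha10, Robo1, Sema3e, Sema6b, Sema6c, Ntn1 and Unc5a gained one there. In STBB OVX against sham, Sema3g, Sema4d, Sema4g and Ntn1 lost the call without some array, and Sema3e gained one. A fold of at least 1.5 left 26 higher and 6 lower in OVX, beside 2209 higher and 2110 lower of all 14217 genes. No alternative called a guidance gene between diets, with 0 in every setting. With the pool number as a block (replicate block) 39 genes were called in OVX against sham and 40 in each other comparison with sham. In LTBB OVX and STBB OVX against sham, where same-numbered pools deviated together, the block changed no call. In the other comparisons same-numbered pools correlated between -0.38 and 0.086, and 3 of 12 arrays correlated best with their own number. The labels give no shared origin for a number, and these correlations cannot settle whether there was one. Of 931 alternative values for 49 named results, 893 kept direction and call, 38 kept direction and lost the call, and none reversed. A result without a call counted as kept where it stayed uncalled. The fold change could not move with the block, with robust variances, with the 2 groups alone or without an array of a group not compared. No reversal was possible in those settings, so these counts say little about how firm a direction is. The causes of the lost calls were not tested. On simulated data, differences of 0.5 log2 units between 3 pools were recovered in 72% to 73% of genes, and smaller differences were not simulated. In that simulation 100 genes changed by 0.5 and 100 by 1 log2 unit, which eases the adjusted threshold. No gene passed between diets, so these shares do not apply to the diet comparisons.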
